A study of Mus musculus with 2 samples.

Results

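The cytosolic ribosomal proteins were examined on the array of bone marrow cells that had been cultured with ID8 tumour cells. Members were the probe sets that the platform annotation assigned to exactly 1 gene symbol starting with Rpl or Rps and a digit. Genes named as S6 kinases (Rps6ka, Rps6kb, Rps6kc and Rps6kl) and symbols containing -ps, which marks pseudogenes, were left out. This gave 102 of 45037 probe sets and 47 of 18193 genes. Of these genes, 40 encode ribosomal proteins proper, 20 of the large and 20 of the small subunit. The other 7 are paralogs (Rpl3l, Rpl7l1, Rpl22l1, Rpl39l, Rps4l and Rps27l) or only share the name (Rps19bp1, which encodes a protein that binds ribosomal protein S19).

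The study profiled 2 samples on 1 array each, both of femoral bone marrow cells from C57BL/6 mice grown in medium with 5% FBS. ID8-induced MDSC (myeloid-derived suppressor cells, immature myeloid cells that restrain T cells) were marrow cells kept for 4 days in the lower chamber of a transwell plate beneath ID8 cells, a mouse ovarian tumour line that the labels also spell 1D8. The title and source name of the sample speak of supernatant as the inducer, whereas the protocol describes co-culture. The control was labelled as bone marrow cells, its labels named no tumour cells, and both samples were labelled CD11b+Gr1+. The labels do not say how many mice were pooled, nor how long the control was cultured.

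The control column could not be read by gene. Its values stood in descending order along the probe set IDs: split at its own last value, it had 0 rises from row to row among the higher values and 0 among the lower, and 3103 of 45036 steps were rises over the whole column, against 22454 in the ID8-induced column. The values below are therefore those of the ID8-induced column only. They describe 1 sample, carry no replicate error, were not tested, and cannot show whether the tumour cells had an effect. Marker lists were read beside the labelled cell type. All 9 measured neutrophil and MDSC markers lay in the top 10% of the array, where 14.8% of all named genes lay. They ranged from Itgam (CD11b) at 2375 to S100a9 at 24857, and Ly6g was not analysed here. The list joins neutrophil and MDSC markers, so it does not tell MDSC from other neutrophils. Of the other markers, Lyz2 (10887), Cd14 (10143), Csf1r (4403) and Adgre1 (1443) of monocytes and macrophages, Ighm (3593) of B cells and Alas2 (1693) of erythroid cells also lay in the top 10%. Above the array's 40th percentile, which 71.3% of all named genes passed, read 5 of 8 monocyte and macrophage, 5 of 5 B lineage, 4 of 5 T and NK cell, 1 of 4 erythroid and 4 of 7 epithelial and mesothelial genes. The RNA was extracted in bulk, so a signal cannot be assigned to a cell type, and fewer cells of a type cannot be told apart from less RNA per cell. The part of other cells in the signals was not tested.

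Ribosomal proteins line the ribosome around its RNA: those named Rps belong to the small subunit, which holds the mRNA and decodes it, and those named Rpl to the large subunit, where peptide bonds form and the new chain leaves through an exit tunnel. They are made in matched amounts in every growing cell. Their mRNAs start with a run of pyrimidines, the 5′ terminal oligopyrimidine (TOP) tract, through which mTORC1 and the protein LARP1 control their translation. In mammals most of these genes also have processed pseudogenes, near-identical copies elsewhere in the genome. On Affymetrix arrays the name of a probe set carries this kind of similarity. A plain _at is designed to be unique, _a_at recognises several transcripts of 1 gene, _s_at matches transcripts of several genes, and _x_at contains probes that can bind other sequences.

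Promoter sequences were taken from RefSeq (GRCm38.p6), from 250 bases before to 50 after each annotated start, and 41 windows covered 35 of the 40 ribosomal protein genes. The letters CTTTCC, a stretch found in many TOP tracts, were searched within 20 bases of the start on the transcribed strand. They stood in 6 of 41 windows (14.6%), of 6 genes, and in 1.95% of all 32851 windows of the table. These 6 windows, and that of the paralog Rpl39l, are shown from 60 bases before to 20 after the start because they are the windows that hold these letters, and most of the 41 windows lack them. Capitals mark CTTTCC within 20 bases of the start and, anywhere in the stretch, CCGGAAG or its reverse complement CTTCCGG.
Rpl4: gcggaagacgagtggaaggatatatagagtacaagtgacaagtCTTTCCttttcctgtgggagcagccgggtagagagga
Rpl13a: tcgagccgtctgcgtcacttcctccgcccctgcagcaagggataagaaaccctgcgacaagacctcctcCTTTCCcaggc
Rpl35: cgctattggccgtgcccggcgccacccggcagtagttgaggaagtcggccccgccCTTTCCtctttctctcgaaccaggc
Rpl38: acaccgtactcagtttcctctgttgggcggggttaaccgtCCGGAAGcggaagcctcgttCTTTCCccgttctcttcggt
Rps10: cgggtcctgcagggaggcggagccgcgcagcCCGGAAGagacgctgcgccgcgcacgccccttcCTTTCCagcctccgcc
Rps27: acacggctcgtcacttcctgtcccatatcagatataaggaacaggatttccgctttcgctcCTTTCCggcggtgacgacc
Rpl39l: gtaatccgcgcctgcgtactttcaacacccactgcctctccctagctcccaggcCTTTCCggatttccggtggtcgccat
The stretches lie in GRCm38.p6 as follows. Rpl4 lies at chr9:64173327-64173406 (plus strand). Rpl13a lies at chr7:45128726-45128805 (minus strand). Rpl35 lies at chr2:39005112-39005191 (minus strand). Rpl38 lies at chr11:114668520-114668599 (plus strand). Rps10 lies at chr17:27635225-27635304 (minus strand). Rps27 lies at chr3:90213629-90213708 (minus strand). Rpl39l lies at chr16:10170168-10170247 (plus strand). All run 5′ to 3′ on the strand of the gene, and their last 20 bases are transcribed by the annotation. Rpl4 lines the exit tunnel, Rpl13a also acts in translational silencing of inflammatory mRNAs in myeloid cells, and Rpl35 sits beside the tunnel exit. Rpl38 and Rps10 hold both motifs, CCGGAAG before the start and CTTTCC after it. In Rpl4 and Rpl39l the marked CTTTCC lies wholly before the annotated start, and in Rpl35 almost wholly. In these genes the annotated mRNA therefore does not hold this match in full.

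CCGGAAG, the core letters bound by ETS-family factors such as GABP, was searched in the whole window on both strands. It stood in 17 of 41 windows (41.5%), of 17 genes, and in 8.86% of all windows. AAGATGGC, letters of the YY1 motif, stood in 3 of 41 windows (7.32%) and in 2.75% of all. TATAAA stood in 4 of 41 (9.76%) and in 13.6% of all, both again on either strand. No overlap between the searched motifs was removed. A pair of examples with CCGGAAG within 60 bases before the start shows its place in genes of both subunits.
Rps3a1: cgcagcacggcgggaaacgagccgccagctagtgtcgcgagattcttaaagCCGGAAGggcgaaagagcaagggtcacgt
Rpl41: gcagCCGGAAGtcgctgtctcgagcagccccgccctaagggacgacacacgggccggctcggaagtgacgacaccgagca
Rps3a1 lies at chr3:86142649-86142728 (minus strand). Rpl41 lies at chr10:128549149-128549228 (minus strand). Rps3a1 encodes a small subunit protein at the mRNA exit side, and Rpl41 the shortest of the ribosomal proteins. A match says only that these letters are present. The array measured transcripts and not promoters, so no link between a motif and a signal was examined.

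Most ribosomal protein genes stood at the top of the array. Each gene is given by the brightest of its probe sets, and its percentile tells how many of 100 probe sets on the array read lower. Of the 47 genes, 21 lay in the top 1% (at or beyond the 99th percentile, signal 4651), where 1.39% of all named genes lay, and 35 in the top 10%, against 14.8%. The count of 21 was 10 with the mean log2 signal per gene, 8 with the dimmest probe set, and 1 of 25 genes with plain _at probe sets alone. On plain probe sets 0.940% of all genes lay there. The shares of all named genes by the mean and by the dimmest probe set are not given here, so those counts stand without a comparison. Above the signal floor, set at the 40th percentile (68.77) because no detection calls were given, lay 43 of 47, against 71.3% of all named genes. The median percentile was 98.9 for the members and 61.4 for all named genes. Probe sets hybridise with different efficiency, so the values place each probe set on the scale of the array and do not rank the transcripts.

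Without paralogs and namesakes, 38 of 40 genes passed the floor and 21 lay in the top 1%. The 20 large subunit genes had a lowest signal of 62.23, a median of 4275 and a highest of 8988. The 20 small subunit genes had 17.13, 5456 and 9695. In each subunit 19 of 20 genes passed the floor, and the ranges overlapped over almost their whole length. At or above the 99th percentile lay 9 large and 12 small subunit genes, a difference that was not tested.

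**Figure D1:**
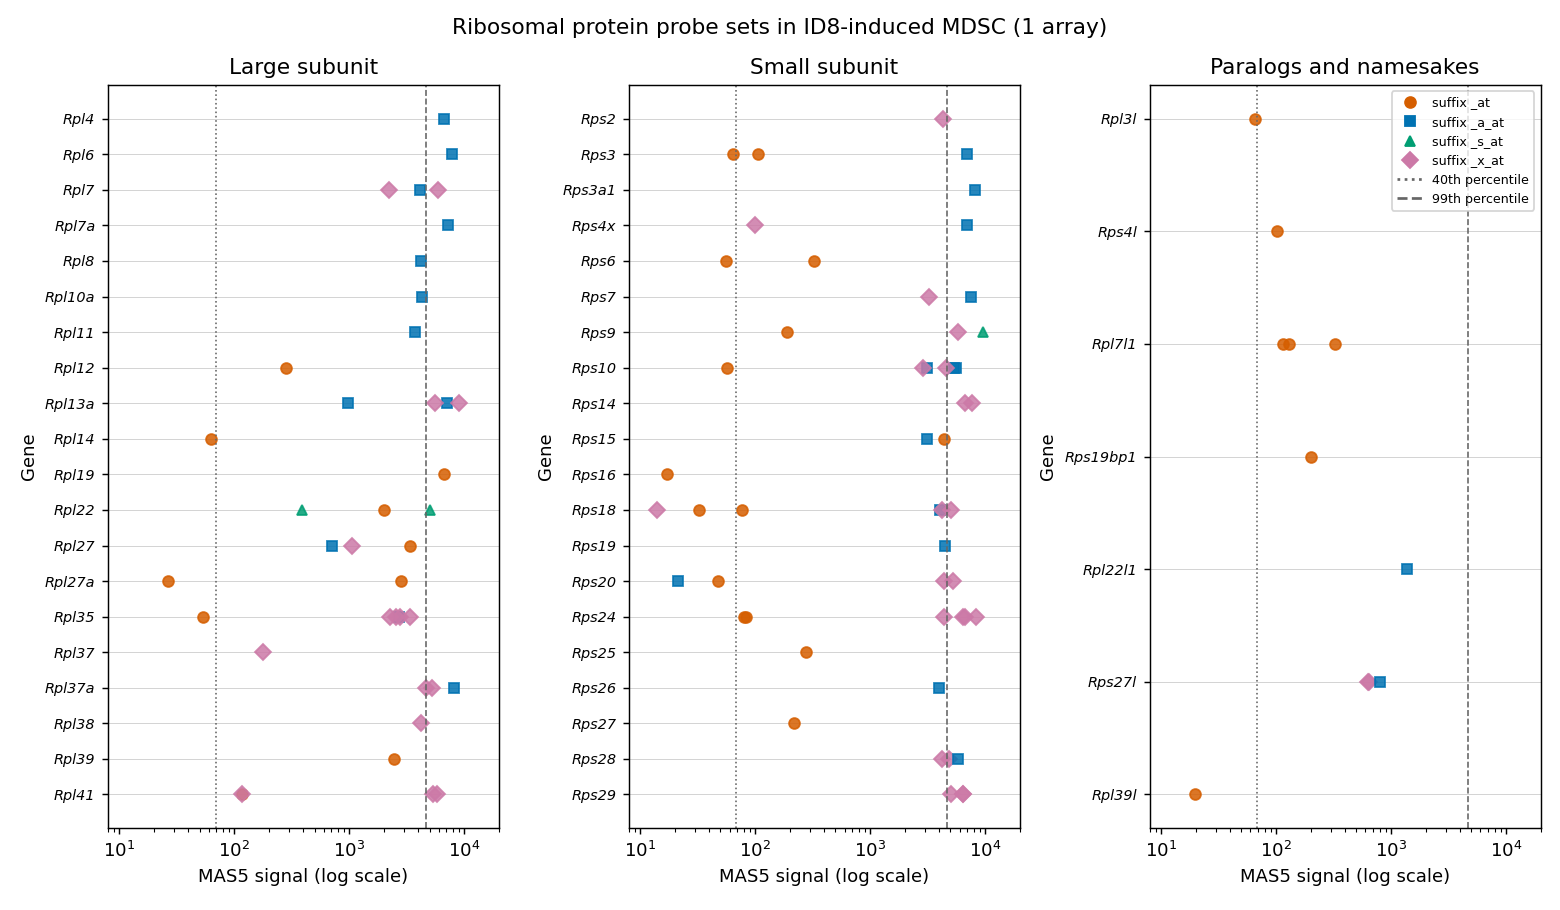
Each point is 1 probe set of a member gene on the ID8-induced MDSC array, with MAS5 signal on a log axis and colour and marker for the suffix; the dotted and dashed lines are the 40th and 99th percentiles of the array. Most genes have probe sets near or beyond the 99th percentile (4651), and most points far to the left of them are plain _at probe sets, such as the 17.13 of Rps16.

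The 6 genes with the strongest signals were Rps9 (9695), Rpl13a (8988), Rps24 (8291), Rps3a1 (8234), Rpl37a (8219) and Rpl6 (7841). Rps9 sits near the mRNA entry channel, and Rps24 is a small subunit protein needed to mature its RNA. Several of these genes had other probe sets far lower. Rps9 read 9695 on its _s_at and 5777 on its _x_at probe set, but 189.5 on its plain one. Rps24 read 8291, 6634, 6469 and 4441 on its _x_at probe sets, but 79.81 and 82.86 on its plain ones. Rpl13a read 8988 and 5583 on _x_at and 7088 and 981 on _a_at probe sets. Rpl37a gave 8219, 5207 and 4668, so its 3 probe sets all lay in the top 1%.

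The suffix separated strong from weak probe sets. Of the 102 member probe sets, 89 passed the floor, against 63.5% of all probe sets with 1 symbol, and 34 lay in the top 1%, against 0.947%. Among 70 member probe sets with a letter in the suffix, 68 passed the floor, against 72.9% of all lettered probe sets, and 64 lay in the top 10%, against 19.6%. Among 32 plain _at probe sets of members, 21 passed the floor (65.6%), against 60.8% of all plain probe sets, and 6 lay in the top 10% (18.8%), against 8.82%. The share of plain probe sets above the floor was thus near that of the array, and no result about the members is read from it.

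By suffix, the 27 _a_at probe sets of members had a median signal of 4318, with 26 above the floor (76.0% of all _a_at) and 12 in the top 1% (2.11% of all). The 40 _x_at probe sets had a median of 4508, with 39 above the floor (65.8% of all _x_at) and 19 in the top 1% (2.55%). The 3 _s_at probe sets read 9695 (Rps9), 5016 and 387.5 (both Rpl22); all passed the floor (73.7% of all _s_at) and 2 lay in the top 1% (1.15%). The 32 plain probe sets had a median of 111, a lowest of 17.13 and a highest of 6673, with 1 in the top 1% (0.637% of all plain). The median percentile was 57.5 for plain, 98.9 for _a_at, 99.1 for _s_at and 98.9 for _x_at probe sets of members, beside 50.3, 69.7, 68.5 and 62.0 for all probe sets with these suffixes. Probe sets of 1 gene share their transcript, so they are not independent of each other.

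**Figure D2:**
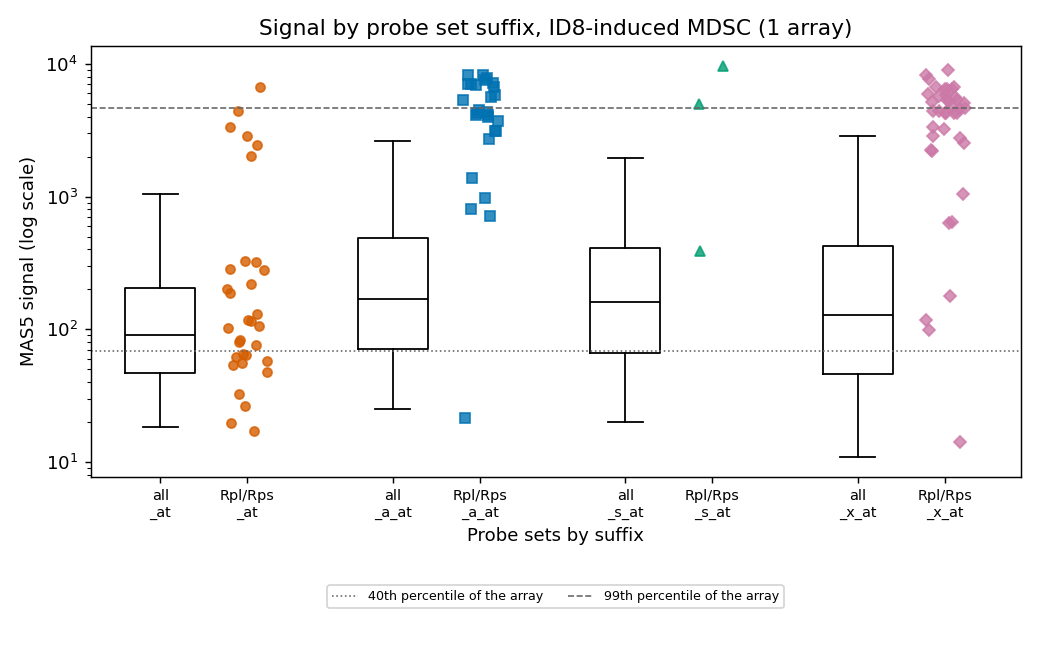
MAS5 signal (log axis) by suffix on the ID8-induced MDSC array: boxes give the quartiles and median of all probe sets with 1 symbol, whiskers their 5th and 95th percentiles, and points the member probe sets (32 _at, 27 _a_at, 3 _s_at and 40 _x_at). Members with a letter in the suffix mostly lie above the boxes' upper whiskers, while most plain _at members lie within the range of all plain probe sets.

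Taken by gene, 33 members had a lettered probe set, and on these 33 passed the floor, against 75.2% of all genes with lettered ones, and 20 lay in the top 1%, against 2.05%. On plain probe sets 18 of 25 genes passed the floor, against 68.0%, and 1 lay in the top 1%, against 0.940%.

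The same split appeared within genes. Of the 47 genes, 11 had both plain and lettered probe sets, and in 9 of them the brightest lettered one exceeded the brightest plain one, against 50.0% of all 4010 such genes. The median ratio of lettered to plain was 62.4 in the members and 1.00 over all such genes. In 8 of the 11 the ratio lay between 48.9 (Rpl41) and 111 (Rps20). Rpl22 had a ratio of 2.48. It was reversed in Rpl27 (0.314) and Rps15 (0.704), whose plain probe sets read 3359 and 4409.

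Rps20, at the head of the small subunit, read 5313 and 4410 on _x_at probe sets, 47.75 on its plain one and 21.43 on its _a_at one. Rps10, which lies near the mRNA entry, read 5598, 5376 and 3121 on _a_at, 4574 and 2872 on _x_at, and 57.43 on its plain probe set. Rps3, a small subunit protein at the mRNA entry with a separate role in DNA repair, read 6978 on its _a_at probe set and 106 and 64.49 on its plain ones. In these 3 genes the plain probe sets lay around or below the middle of the array, and the lettered ones stood near its top except for the _a_at probe set of Rps20, which read below its plain one.

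Rps18, a small subunit head protein, read 5105 and 4260 on 2 of its _x_at probe sets and 4088 on its _a_at one. Its remaining _x_at probe set read 14.09, the lowest value of any member probe set, and its plain ones read 76.95 and 32.48. A letter in the suffix was therefore not always accompanied by a strong signal. The lettered probe sets below the 90th percentile numbered 6, in Rps18, Rps20, Rpl22 (387.5), Rpl37 (178.8), Rpl41 (116.9) and Rps4x (99.6). Of these genes, all but Rpl37 had another lettered probe set in the top 1%. Rps4x, an X-linked small subunit gene, read 6907 on its _a_at probe set.

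Among large subunit genes, Rpl35 read 3352, 2780, 2536 and 2258 on _x_at probe sets and 2708 on its _a_at one, but 53.72 on its plain one. Rpl41 read 5757 and 5320 on 2 _x_at probe sets, and 116.9 and 117.8 on its other _x_at and its plain one. Rpl27a had only plain probe sets, which read 2849 and 26.40. Of the 23 members with several probe sets, 7 (Rpl27a, Rpl35, Rps3, Rps6, Rps10, Rps18 and Rps20) had them on both sides of the floor, against 43.7% of 9010 genes on the whole array. The brightest and dimmest probe set differed by a median ratio of 9.16 in these 23 genes and of 3.01 over the 9010. The ratio exceeded 10 in 11 members and stayed under 2 in 6. Rps28 and Rps29, short small subunit proteins, were of the latter kind, with 5848, 4826 and 4235 for Rps28 and 6482, 6409 and 5110 for Rps29.

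The plain probe sets that did reach the 90th percentile belonged to Rpl19 (6673), Rps15 (4409), Rpl27 (3359), Rpl27a (2849), Rpl39 (2429) and Rpl22 (2020). Of the 7 plain member probe sets whose annotation gives a RefSeq mRNA accession, 4 lay in the top 10%, and of the 25 with another accession or none, 2 did. Over all plain probe sets these shares were 13.1% and 7.94%.

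Only 7 of the 40 ribosomal protein genes lay below the 90th percentile on their brightest probe set: Rpl12, Rpl14, Rpl37, Rps6, Rps16, Rps25 and Rps27. All 7 were also named on probe sets shared with other symbols, mostly pseudogenes or unnamed gene models, which the rule leaves out. On those shared probe sets 6 of the 7 reached the 98th percentile and 4 the 99th. These 7 genes were chosen by their values, so this is a description.

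Rps6, the small subunit protein phosphorylated downstream of mTORC1, read 323.7 and 55.51 on its own plain probe sets. On 9 probe sets shared with the pseudogene Rps6-ps4 it read from 76.39 to 11363, the highest on an _a_at probe set. Rps16 read 17.13 on its own probe set, below the floor, but 10278 and 8599 on its shared ones. Rpl14 read 62.23 on its own, also below the floor, and between 1388 and 2084 on 5 shared ones. For these genes the brightest value by the rule and the brightest value on shared probe sets fell in different parts of the array. For Rps6 the dimmest shared value, 76.39, lay between the values of its own probe sets.

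Rpl12 read 283.4 alone and up to 4580 shared, and Rps25 read 279.6 alone and 4834 shared. Rps27, a zinc-binding small subunit protein, read 219.6 alone and 4511 on a probe set shared with its retrotransposed copy Rps27rt. Rpl37 read 178.8 on its own _x_at probe set and up to 6316 on those shared with Rpl37rt. A shared probe set does not say which of its genes was transcribed. The reverse order also occurred, since the shared probe sets of Rpl11, Rps19 and Rpl37a read 76.96, 71.23 and 52.83 while their own read up to 3718, 4477 and 8219.

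**Figure D3:**
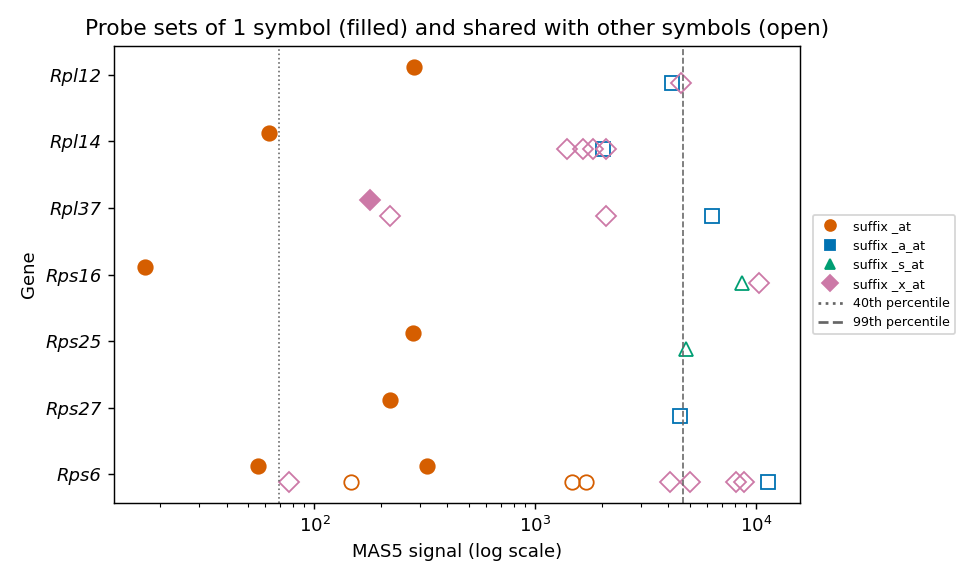
MAS5 signal (log axis) of the 7 ribosomal protein genes below the 90th percentile by the rule: filled points are probe sets with 1 symbol, open points probe sets shared with other symbols, and lines the 40th and 99th percentiles of the array. For each gene the brightest open point lies to the right of every filled one, as for Rps16 at 10278 against 17.13.

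In all, 109 probe sets were shared between a ribosomal protein symbol and another symbol, more than the 102 with 1 symbol. Of the shared ones 98 passed the floor, against 66.6% of all 932 probe sets with several symbols, and 49 lay in the top 1%, against 8.26%. These 49 are among the 77 probe sets that make up the 8.26%. The same held by suffix: the median percentile of the shared probe sets was 65.9 for plain _at and 99.2, 99.3 and 98.9 for _a_at, _s_at and _x_at. They named 15 of the member genes and 30 further symbols that had no probe set of their own. These include Rpl5 (8476), which carries the 5S ribosomal RNA, Rpl23 (6824), Rps23 (8141), which sits at the decoding site, Rpl3 (5426), at the peptidyl transferase centre, and Rpl31 (8111), at the tunnel exit. Of the 30, 22 reached the 99th percentile on a shared probe set, beside 1.39% of all named genes on probe sets with 1 symbol. That share is of another kind of probe set, and a share by gene on shared ones is not given here. Rpl32 and Rpl32l were read on the same probe set, and Rpl37rt on those of the member Rpl37. The 22 are therefore not separate readings. Of the 450 probe sets of the array in the top 1%, 34 were members and 49 were shared ones, together 18.4%, although both kinds made up 0.469% of all probe sets.

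Pseudogenes named after each gene were also counted in the RefSeq table. The table holds 306 such names. The median was 1 per gene for the 40 ribosomal protein members, with up to 14 (Rpl7a), and 5 for the 30 symbols with shared probe sets only, with up to 24 (Rpl31). The latter symbols stand apart because their probe sets also carry other symbols, which can be such pseudogenes. The higher median thus follows in part from how the groups were formed. Copies under other names were not counted.

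Paralogs and namesakes were spread over most of the range of the array: 5 of 7 passed the floor, 2 lay in the top 10% and 0 in the top 1%. Over all named genes the shares were 71.3%, 14.8% and 1.39%, so these counts do not set the 7 apart. Rpl22l1, whose product can replace Rpl22 in the ribosome, read 1386. Rps27l, a p53 target, read 810.8, 641.6 and 632.6 on 3 lettered probe sets that lay close together. Rpl22l1 and Rps27l were the 2 in the top 10%.

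Rpl39l, a germ cell paralog of the tunnel protein Rpl39, read 19.89. Rpl3l, the striated muscle paralog of Rpl3, read 65.39. Both lay below the floor. Rpl7l1 read 326, 130.9 and 115.8, all on plain probe sets, and Rps4l 103. The namesake Rps19bp1 read 200. Of these 7 genes 5 had plain probe sets only, and 2 had lettered ones only (Rpl22l1 and Rps27l). The part of the suffix in these values was not tested, and no level of a paralog is compared with that of its parent.

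Groups of members by role were mostly at the top of the array, as were the 40 ribosomal protein genes to which all but Rps27l belong (38 above the floor, 33 in the top 10% and 21 in the top 1%). Over all named genes these shares were 71.3%, 14.8% and 1.39%, and no group is set apart from the other members. Of the 12 measured genes mutated in Diamond-Blackfan anaemia or lost in 5q- syndrome, disorders of red cell production, 12 passed the floor, 11 lay in the top 10% and 6 at or above the 99th. Rps19 read 4477, Rpl11 3718, Rps26 3947 and Rps24 8291, and Rps27 was the exception below the 90th percentile. The 7 measured genes of the mRNA channel and decoding region all lay in the top 10%, with Rps2 at 4293, Rps3 at 6978, Rps15 at 4409 and Rps9 at 9695. Of the 5 measured genes at the exit tunnel, all lay in the top 10%, with Rpl4 at 6650, Rpl39 at 2429, Rpl19 at 6673 and Rpl22 at 5016. Rpl11, Rps3, Rps7 and Rps27l, whose products bind MDM2 or act in the p53 response, read 3718, 6978, 7555 and 810.8. The lists overlap, and they were not tested.

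Ribosomal proteins that the rule leaves out by name gave the same picture. Rplp0 and Rplp2, which form the stalk that recruits elongation factors, read 8840 and 7985. Rpsa, which is also a laminin receptor, read 5219 on its brighter probe set and 70.05 on the other. Fau, which encodes a ubiquitin-like protein fused to a small subunit protein, read 14541. Of 8 listed symbols only these 4 had a probe set with 1 symbol. All 4 lay in the top 1%, against 1.39% of all named genes.

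Other parts of the translation machinery are given beside the share of all named genes above the floor (71.3%), in the top 10% (14.8%) and in the top 1% (1.39%). Mitochondrial ribosomal proteins, which build the separate ribosome of the mitochondrion, passed the floor in 75 of 76 genes. In the top 10% lay 5 and in the top 1% 0, with a median percentile of 76.5. Factors of ribosome biogenesis and RNA polymerase I passed in 28 of 31 genes. Of these 31, 5 lay in the top 10% and 0 in the top 1%, with a median of 69.3. Among them Npm1 (nucleophosmin) read 2921, Ncl (nucleolin) 1622 and Fbl (fibrillarin) 293.9. The list of initiation factors passed in 27 of 27 genes, with 21 in the top 10%, 1 in the top 1% and a median of 95.1. The 1 was Pabpc1 (8435), which encodes a poly(A)-binding protein. Pabpc1, Eif4ebp1 and Eif4ebp2 were on this list but are not themselves initiation factors. The list of elongation and termination factors passed in 11 of 11 genes. It had 7 in the top 10%, 2 in the top 1% and a median of 95.1. The 2 were Eef1a1 and Tpt1 (15077). Tpt1, Eef2k and Eef1e1 were on this list but are not themselves elongation or termination factors. Eif1ax read 1281, Eif2a 375.3 and Eif2s2 3322. Eef1a1, which brings aminoacyl-tRNA to the ribosome, read 14319, Eef1b2 2688 and Eef1d 1003.

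Regulators of TOP mRNAs and the mTORC1 complex passed the floor in 10 of 10 genes. Of these, 3 (Rheb, Ssb and Cnbp) lay in the top 10% and 0 in the top 1%, with a median percentile of 82.2. Mtor (the kinase) read 329.4, Rptor (its scaffold) 208.8 and Mlst8 228.1. Of the genes named as S6 kinases (Rps6k) 5 of 6 measured ones passed, with 0 in the top 10%, counts that do not set them apart from all named genes. The group was formed by name, and Rps6kb1 was not among the 6. Rps6ka3 read 406.9, Rps6ka5 168.7 and Rps6ka6 43.14. These lists differ in their suffixes and numbers of probe sets, so the medians are set side by side without a test.

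**Figure D4:**
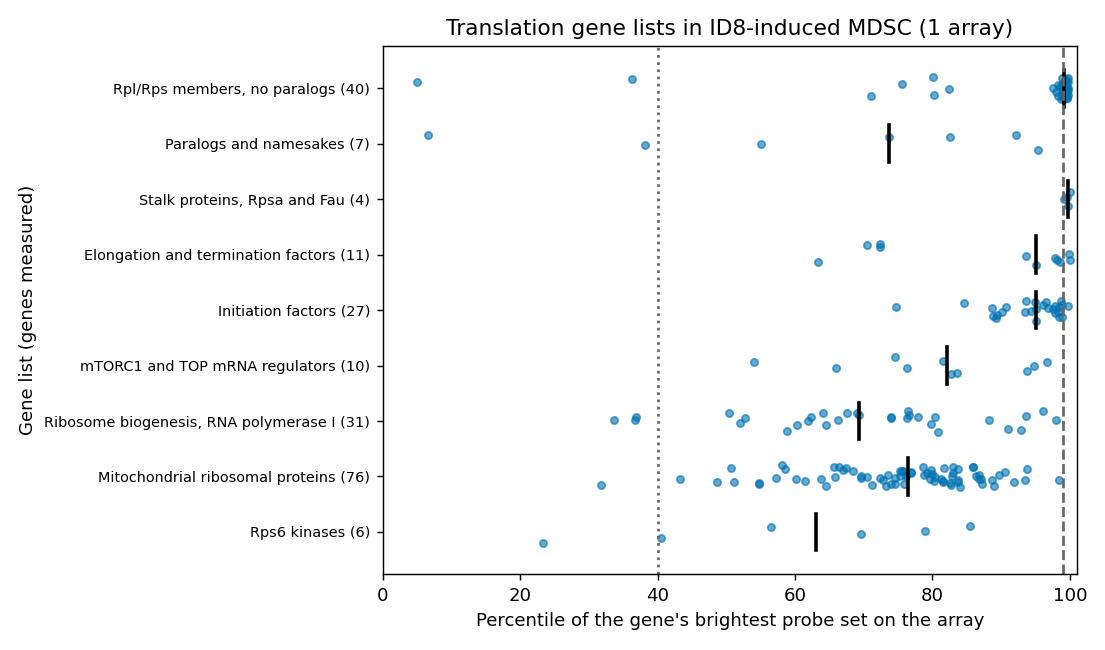
Each point is 1 gene, placed by the percentile of its brightest probe set on the ID8-induced MDSC array; black bars are medians, the number of measured genes stands in brackets, and the lines mark the 40th and 99th percentiles. The ribosomal protein members without paralogs gather near their median of 99.1, and 7 of their 40 genes lie below the 90th percentile.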

How the data were processed

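Per the submitters' processing notes the authors used MAS5. The authors deposited 1 linear MAS5 intensity per probe set, used here with no added scaling. Which version, target and detection calls applied is not given in the sources used here. Per the labels' protocols, labelling began with 6 ug of total RNA. GEO's platform annotation gave the names, and only the 34945 probe sets with 1 symbol were used unless shared ones are stated. The member rule, gene lists and markers were chosen with earlier results of these data known. The signal floor was the 40th percentile of the array, and each gene was given by the brightest of its probe sets, which favours genes with many probe sets. Named were members with probe sets on both sides of the floor, the 10 most discordant, those below the floor, paralogs with their parents, the 6 strongest and 6 weakest, and the first members of each list. Other members named with values were chosen after these were seen. Alternatives were other floors and other ways to represent a gene. The grouping of the 7 genes below the 90th percentile and the count by accession were chosen after the data were seen. With 1 array no test was run, and the number of arrays limits the precision. Protein features were planned but not computed, as no protein sequences were used here. The scripts were tested on simulated data. Python 3.11.15, numpy 2.4.6, pandas 2.3.3 and matplotlib 3.10.9 were used.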

Additional observations from a re-analysis of the deposited data

How the results depend on the processing

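The count of member genes above the floor (43 of 47) stayed within 1.5 times under other floors (45 at the 20th and 42 at the 60th percentile), the mean log2 signal per gene (43), the dimmest probe set (36), and without paralogs and namesakes. With plain probe sets alone it was 18 of 25 genes. The median percentile, 98.9, was 96.1 with the mean, 90.2 with the dimmest and 72.4 with plain probe sets. The number of genes at or above the 99th percentile, 21, was 10 with the mean, 8 with the dimmest and 1 with plain probe sets (0.940% of all genes). Chosen after the data were seen were lettered probe sets alone, which gave 20 of 33 genes (2.05% of all), and the addition of shared probe sets, which gave 28 of 47. Genes with probe sets on both sides of the floor, 7, numbered 3 with the floor at the 20th and 11 at the 60th percentile. Counts by suffix stayed within 1.5 times. The shares of all named genes under the other floors, the mean, the dimmest probe set and added shared probe sets are not given here. Those member counts therefore stand without a comparison. No paired analysis was possible because each group had 1 array. The cause of these differences was not tested.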
